A study of Mus musculus with 36 samples.

Results

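The genes described here carry dietary fat through the absorptive cell of the small intestine, the enterocyte. They were taken by symbol from a fixed list of 10: the apolipoprotein genes Apoa1, Apoa4, Apob, Apoc2 and Apoc3, the fatty acid binding protein genes Fabp1 and Fabp2, the lipoprotein assembly and triglyceride synthesis genes Mttp and Dgat1, and the fatty acid receptor gene Cd36. Of these 10 genes, 9 had a row in a table of 34197 genes, and all 9 were among the 11462 genes with enough counts to be tested. Apoc2 was not analysed here. The material was organoids, self-renewing epithelial cultures, grown from the duodenum of C57BL/6 mice (male or virgin female, older than 8 weeks) and not enriched for any cell type. They were kept under flow on a microfluidic chip and received either the solvent DMSO or, in a repeating rhythm, DAPT, which inhibits gamma-secretase and so keeps Notch receptors from being cleaved. Pulses had a period of 90 min at 1.38 µM, 130 min at 2 µM or 170 min, for which the labels list both 2.6 and 2 µM. Each of the 4 treatments ran for 24, 48 or 72 h with 3 libraries, which makes 12 groups and 36 libraries of 20 to 50 organoids each. Cultures were passaged 3, 2 or 1 days before runs of 24, 48 and 72 h, so all were harvested 4 days after passage and the time on the chip differed against the time before it. The labels do not say whether DMSO was pulsed, or whether replicates were separate cultures, so each p-value reflects only how far these samples lie apart, which may be technical.

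Enterocytes take up fatty acids and monoacylglycerol from the gut lumen, shuttle them on binding proteins to the endoplasmic reticulum and rebuild them into triglyceride. The microsomal transfer protein encoded by Mttp loads this lipid onto apolipoprotein B, and the particle leaves the cell as a chylomicron that also carries apolipoproteins A-I, A-IV and C-III. Most of these genes are switched on as cells leave the crypt and mature along the villus, which is why they serve as markers of differentiated enterocytes. Notch signalling in the crypt favours the absorptive over the secretory fate.

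Apoa1, Apoc3 and Apoa4 are direct neighbours among the coding genes of chromosome 9, in that order, between Sik3 and Apoa5. RefSeq promoter windows of 300 bases (250 before and 50 after the start site, build GRCm38.p6) were found for 8 of the 10 genes. Apoc3 and Dgat1 had none. The windows of Apoa1 and Apoa4 are shown because these neighbours had the highest correlation of any pair of the 9 genes, that of Fabp1 because it held the most motif matches, and that of Apob because its level followed the other genes least. All 4 lie on the forward strand, and capitals mark a motif match.
Apoa1 chr9:46228380-46228679: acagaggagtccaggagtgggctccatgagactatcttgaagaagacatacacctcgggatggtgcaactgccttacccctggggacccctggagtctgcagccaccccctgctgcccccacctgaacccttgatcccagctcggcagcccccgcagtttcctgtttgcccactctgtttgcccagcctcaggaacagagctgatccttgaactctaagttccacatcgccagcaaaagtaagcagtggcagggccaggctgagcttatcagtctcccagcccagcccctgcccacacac
Apoa4 chr9:46240594-46240893: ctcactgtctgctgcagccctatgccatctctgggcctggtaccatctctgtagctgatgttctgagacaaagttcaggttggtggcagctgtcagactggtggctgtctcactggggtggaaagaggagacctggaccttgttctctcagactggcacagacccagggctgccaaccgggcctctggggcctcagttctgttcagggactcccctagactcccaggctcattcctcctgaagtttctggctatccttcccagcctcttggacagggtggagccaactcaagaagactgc
Fabp1 chr6:71199629-71199928: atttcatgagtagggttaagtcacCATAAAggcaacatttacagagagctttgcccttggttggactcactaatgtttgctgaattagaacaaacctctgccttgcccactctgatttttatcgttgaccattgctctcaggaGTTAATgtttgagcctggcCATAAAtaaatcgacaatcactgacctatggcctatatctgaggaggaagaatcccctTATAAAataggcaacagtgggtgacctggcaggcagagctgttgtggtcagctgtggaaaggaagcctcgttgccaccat
Apob chr12:7977427-7977726: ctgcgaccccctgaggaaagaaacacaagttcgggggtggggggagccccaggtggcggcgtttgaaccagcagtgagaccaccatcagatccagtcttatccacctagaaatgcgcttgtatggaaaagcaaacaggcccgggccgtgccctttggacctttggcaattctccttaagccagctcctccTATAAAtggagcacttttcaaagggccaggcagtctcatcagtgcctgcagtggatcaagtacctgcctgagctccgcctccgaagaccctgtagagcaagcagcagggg
Both strands were searched for 5 short motifs, none of which contains another. The letters were CAAAGTCC for the factor HNF4 (part of its site with the spacer), GTTAAT for HNF1 (part of its site), AGATAA for the GATA factors, TATAAA for the core promoter box of that name and TTTATG for the CDX factors. Fabp1 held GTTAAT 107 bases before the start site, TATAAA 30 bases before it and the reverse complement of TTTATG at 226 and 88 bases before it. In Apob the only match was TATAAA, 60 bases before the start site, and Apoa1 and Apoa4 had none, as had Fabp2 and Mttp. Cd36 held TTTATG 232 bases before its start and Apoc2 held GTTAAT 89 bases before its start. Over all 32851 windows the shares with a match were 1.42% for CAAAGTCC, 7.1% for GTTAAT, 11.2% for AGATAA, 13.6% for TATAAA and 11.9% for TTTATG. These are letter matches and were not tested as binding sites.

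Levels are given as CPM, the molecule counts of a gene divided by the library's total with a TMM factor and put on a common scale. Totals ran from 482741 to 1447330 counts with a median of 958749, and the highest count of any of the 9 genes in a library was 957. Summed over the 9 genes the level ran from 616 to 4658 CPM with a median of 2079 CPM. In bulk RNA from whole organoids, fewer enterocytes and less RNA per enterocyte cannot be told apart.

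The libraries were not alike in these genes. The library 130 min 72 h replicate 2 had the lowest summed level of the 36, 616 CPM, and was among the 3 lowest libraries for 8 of the 9 genes. There Apoa1 was at 56.2 CPM, 12.1% of its median over all libraries, Apoc3 at 6.78 CPM and Fabp1 at 31.0 CPM. Apoa4 and Cd36 had 0 counts in it, which allows up to 2.91 CPM for each. DMSO 48 h replicate 3 had a summed level of 822 CPM and was likewise among the 3 lowest for 8 of the 9 genes. 170 min 72 h replicate 2 stood at 1124 CPM and was among the 3 lowest for 5 of them. At the other end, 130 min 24 h replicate 3 reached 4658 CPM and was among the 3 highest for 8 of the 9. Apob stayed nearest to its median: in the 3 low libraries it was at 115, 82.1 and 99.5 CPM (102%, 73.0% and 88.4% of its median). Dgat1 came next, at 64.5%, 65.8% and 80.1% of its median in the same order. The totals of the 3 low libraries, in that order 1023096, 828506 and 1201118 counts, lay within the range of the others. The high library, 130 min 24 h replicate 3, had 656157 counts, below the median of 958749, and a TMM factor of 0.919.

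**Figure D1:**
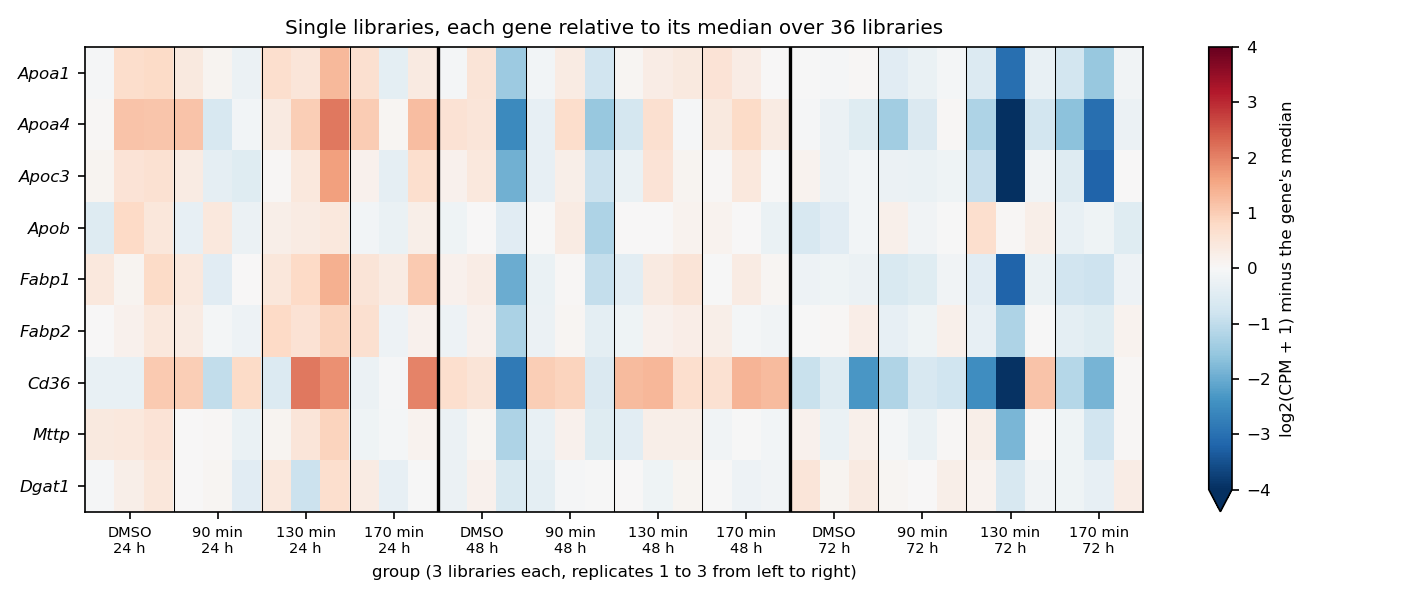
Level of each of the 9 genes (rows) in each of the 36 libraries (columns, replicates 1 to 3 from left to right in each group), as log2(CPM + 1) minus the gene's median over all libraries, with values under -4 shown in the darkest blue. The dark columns are 130 min 72 h replicate 2, DMSO 48 h replicate 3 and 170 min 72 h replicate 2, and Apob is pale in all of them.

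The same libraries stood apart in other enterocyte genes. The summed level of 27 further enterocyte marker genes had a median of 4001 CPM over the 36 libraries. It was 1622 CPM in DMSO 48 h replicate 3, 1669 CPM in 130 min 72 h replicate 2 and 2195 CPM in 170 min 72 h replicate 2, the 3 lowest of all, and it was highest, at 7731 CPM, in 130 min 24 h replicate 3. Goblet cell markers (8 genes) were at 2583, 2711 and 3369 CPM in the 3 low libraries against a range of 2239 to 4280 CPM over all 36. Proliferation markers (8 genes) were at 1873, 1706 and 1551 CPM in them, against 1394 to 2312 CPM. Stem cell markers (8 genes, median 2075 CPM) were lowest of all 36 in 170 min 72 h replicate 2, at 1041 CPM. Enteroendocrine markers (9 genes, 10.6 to 1325 CPM over all) were lowest at 72 h in 130 min replicate 2, at 23.3 CPM. Macrophage and immune markers (8 genes, mostly Cd14) were highest of all 36 in 130 min 72 h replicate 2, at 140 CPM. At 48 h they were highest in DMSO replicate 3, at 113 CPM. Paneth cell markers were lowest and highest in other libraries. The share of mitochondrially encoded counts in the 3 low libraries was 0.975%, 0.962% and 0.937%, within the range of 0.867% to 1.48%. The part of these differences in the results below was not tested beyond leaving the libraries out.

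**Figure D2:**
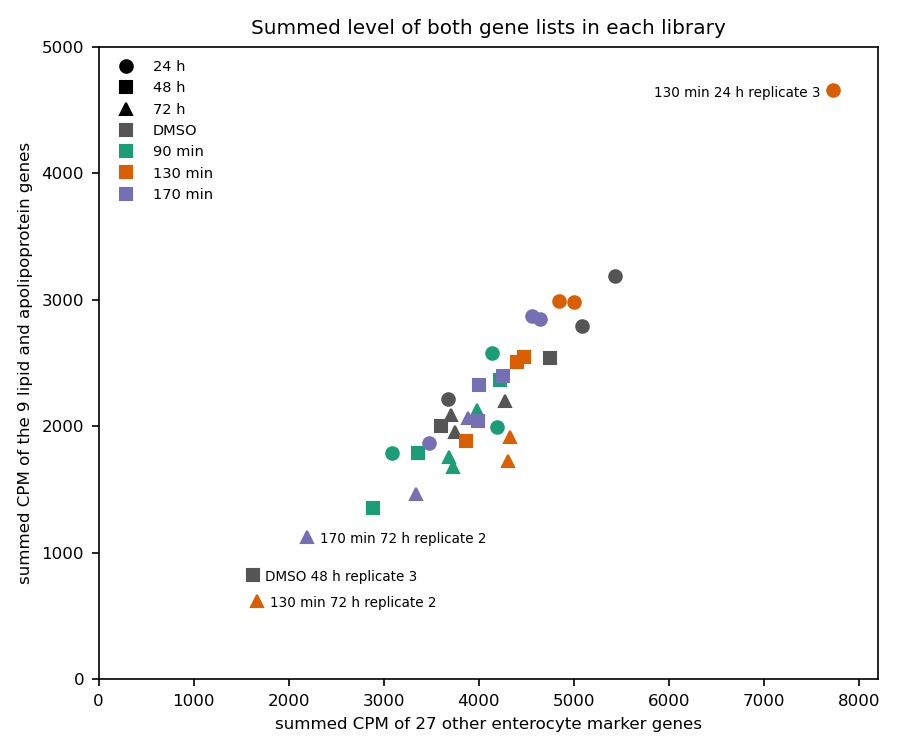
Summed CPM of the 9 genes (vertical axis) against summed CPM of 27 other enterocyte marker genes (horizontal axis), with 1 point for each of the 36 libraries, colour for treatment and shape for duration. The 3 libraries at the lower left (616 to 1124 CPM) and 130 min 24 h replicate 3 at the upper right (4658 CPM) stand apart on both axes.

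Cells that share some of these genes were looked for. Markers of endothelium, where Cd36 and the related Fabp4 are strong, summed to between 2.31 and 13.5 CPM for 8 genes, and the endothelial cadherin gene Cdh5 had 1 count in all 36 libraries together. Fibroblast markers (8 genes) summed to at most 9.09 CPM and adipocyte markers (4 genes with a row) to at most 2.74 CPM. Macrophage and immune markers (8 genes) summed to between 52.1 and 140 CPM. Of these, Cd14 averaged 69.9 CPM, Itgam 4.18 CPM and Cd68 3.84 CPM, while Ptprc had 9 counts in all, Adgre1 4 and C1qa 3. Among hepatocyte markers, which would share the apolipoproteins, Alb had 16 counts in all and Ahsg 1. Ttr, which is not confined to liver, averaged 87.7 CPM, and Cyp2e1 averaged 9.25 CPM. Enterocyte markers were plain, with a median of 4001 CPM for the sum of 27 genes.

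With longer time on the chip Apoa4, which encodes the apolipoprotein A-IV that coats newly made chylomicrons, fell. Its level at 72 h averaged 26.6 CPM (SD 15.6, n = 12) against 87.2 CPM at 24 h (SD 46.9, n = 12), a log2 fold change of -1.82 (SE 0.38, adjusted p = 0.0480, edgeR's quasi-likelihood test over all 4 treatments). It was the only one of the 9 genes to pass at an adjusted p under 0.05. Among all tested genes 0.157% passed in either direction and 0.105% were lower. At an unadjusted p under 0.05, 7 of the 9 genes were lower, against 7.63% of all tested genes, and none was higher. Most of the 9 varied together across libraries, as given below, so these are not 7 separate results. All 9 estimates (log2 fold changes, here and below) were below 0, with a median of -0.90, whereas 50.8% of all genes were and their median was -0.00.

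The Apoa4 call depended on how libraries were counted. Same-numbered libraries of 130 and 170 min, and at 24 and 48 h those of DMSO and 90 min, deviated together across genes, so the 12 libraries of a duration are not all independent. With same-numbered libraries of these 2 sets summed to 1 unit, 6 for each duration (72 h included), the Apoa4 change was -1.76 (SE 0.44) but the adjusted p was 0.407, and 0 of 11462 genes passed (1081 at an unadjusted p under 0.05). Without the 3 low libraries the estimate was -1.49 (adjusted p = 0.107), and without these and the 1 high library it was -1.35 (adjusted p = 0.137). DESeq2 called 3 of the 9 genes: Apoa4 (adjusted p = 0.00588), Fabp1 (adjusted p = 0.00975) and Apoa1 (adjusted p = 0.0261), where it called 0.89% of all genes (102 genes, against 18 in edgeR). Leaving out any 1 of 21 libraries ended the edgeR call of Apoa4 (adjusted p between 0.0511 and 0.118), and leaving out any 1 of the other 15 kept it (0.0222 to 0.0494). The 21 were DMSO 24 h replicate 3, 48 h replicate 1 and 72 h replicates 1, 2 and 3, 90 min 24 h replicates 1 and 3, 48 h replicate 1 and 72 h replicates 1 and 2, 130 min 24 h replicates 2 and 3, 48 h replicate 3 and 72 h replicates 1 and 2, and 170 min 24 h replicate 3, 48 h replicates 1, 2 and 3 and 72 h replicates 1 and 2. The estimate lay between -2.06 and -1.62 in all 36 cases.

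Single libraries show the spread behind this. At 24 h Apoa4 was at 48.5, 105 and 102 CPM in DMSO, 104, 29.8 and 43.4 CPM after 90 min pulses, 60.0, 92.9 and 205 CPM after 130 min pulses and 94.98, 49.0 and 111 CPM after 170 min pulses. At 48 h it was at 70.4, 65.7 and 7.14 CPM in DMSO, 37.3, 77.0 and 15.8 CPM after 90 min, 28.6, 72.8 and 45.4 CPM after 130 min and 62.0, 80.7 and 58.3 CPM after 170 min. At 72 h it was at 45.4, 40.0 and 32.8 CPM in DMSO, 17.1, 30.7 and 48.1 CPM after 90 min, 19.4, 0 and 27.4 CPM after 130 min and 14.2, 4.93 and 39.4 CPM after 170 min. Most 72 h libraries were lower than most at 24 h. At 48 h, DMSO replicate 3, 90 min replicates 1 and 3 and 130 min replicates 1 and 3 lay below the highest 72 h library. Of the 24 h libraries only 90 min replicates 2 and 3 lay below it. The group means in CPM went down from 24 to 48 to 72 h in all 4 treatments. On log2(CPM + 1) the DMSO mean was higher at 72 than at 48 h, where low replicate 3 lies.

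**Figure D3:**
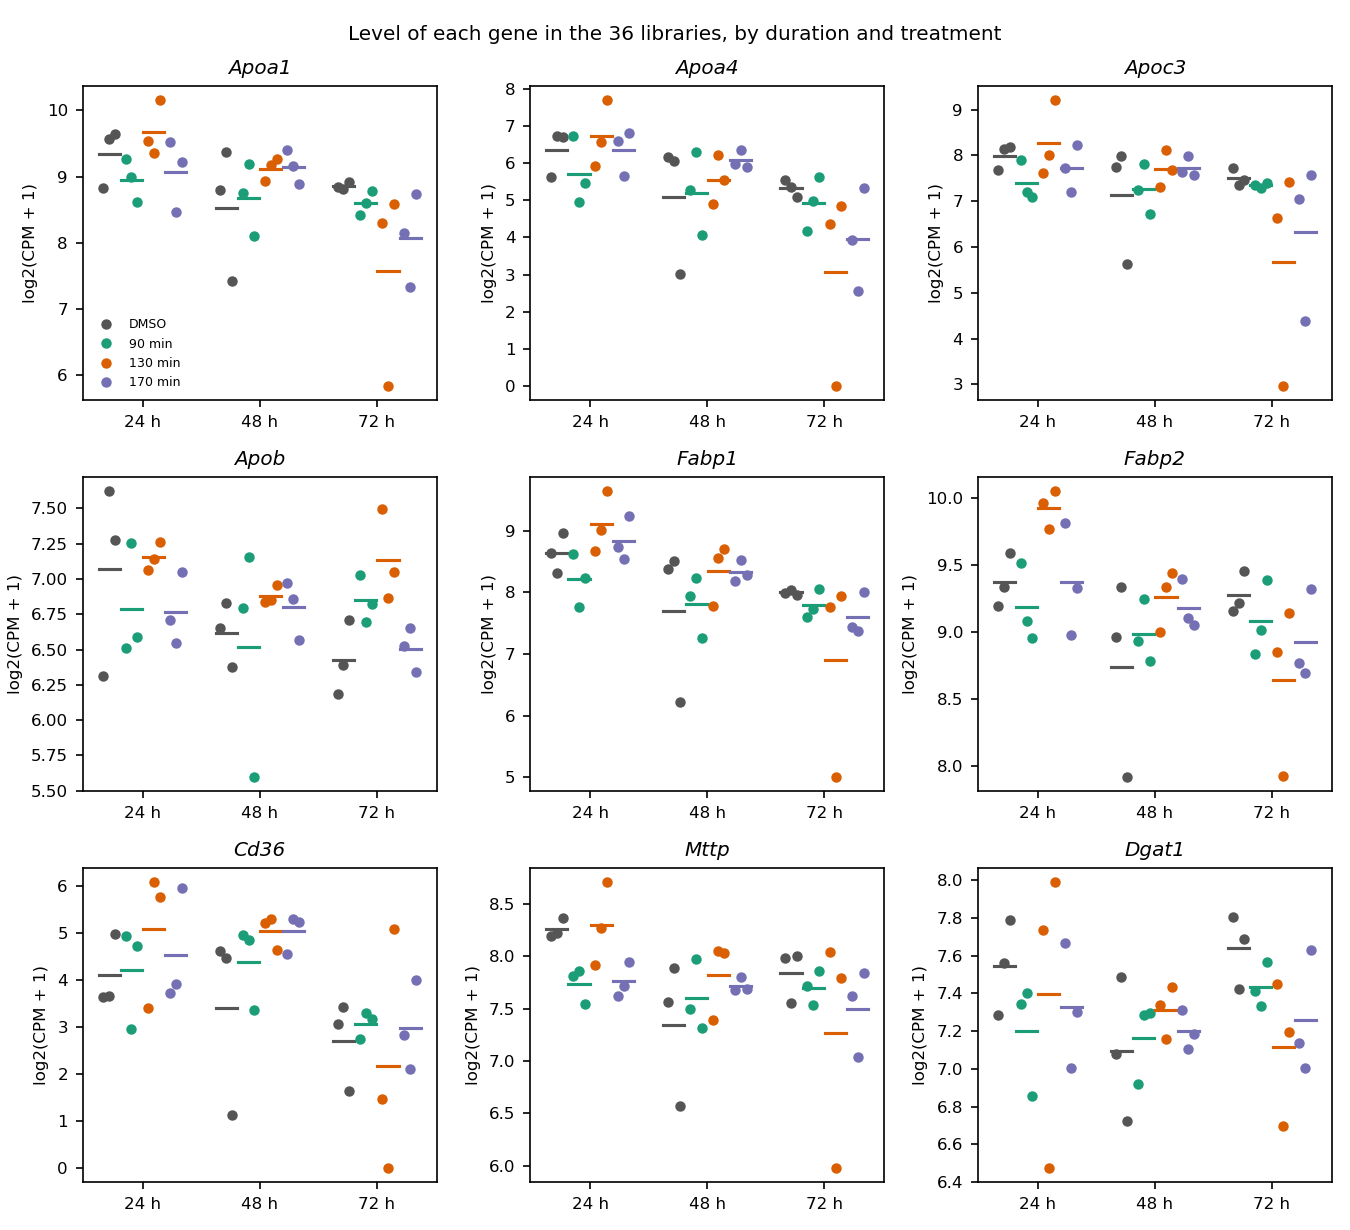
Level of each of the 9 genes as log2(CPM + 1) by duration, with 1 point for each library, colour for treatment and a bar for the mean of the 3 libraries of a group (axes differ between panels and do not start at 0). The bars of Apoa4 and Fabp1 are lower at 72 than at 24 h in all 4 treatments, while those of Apob and Dgat1 are not.

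Apoa1 and Apoc3, the neighbours of Apoa4, had smaller differences that did not pass. Apoa1, which encodes the main protein of high density lipoprotein, was at 353 to 1135 CPM at 24 h (median 632 CPM), 170 to 673 CPM at 48 h (median 528 CPM) and 56.2 to 481 CPM at 72 h (median 384 CPM). The estimate from 24 to 72 h was -0.91 (SE 0.24, adjusted p = 0.0799, edgeR), and -0.70 without the 3 low libraries (adjusted p = 0.107). Apoc3, an inhibitor of lipoprotein lipase, had medians of 226, 200.4 and 162 CPM at 24, 48 and 72 h and an estimate of -0.90 (SE 0.31, adjusted p = 0.182), or -0.60 without the 3 low libraries (adjusted p = 0.305). Both ranges at 72 h overlapped those at 24 h.

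Apob, the structural protein of the chylomicron, moved little. Its median was 132 CPM at 24 h, 113 CPM at 48 h and 103 CPM at 72 h, and the estimate from 24 to 72 h was -0.25 (SE 0.14, adjusted p = 0.395, edgeR; 95% interval -0.54 to 0.03). The count of Apoa4 relative to that of Apob in the same library had a median of 0.640 at 24 h (0.196 to 1.34), 0.521 at 48 h and 0.253 at 72 h (0 to 0.633). For Apoa1 relative to Apob the medians were 4.90, 4.96 and 3.42. Both ratios are free of the scaling of the libraries, and in each the ranges of 24 and 72 h overlapped. Their differences were not tested.

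The 2 cytosolic fatty acid carriers differed in size of change. Fabp1, the carrier shared with liver, was at 217 to 795 CPM at 24 h (median 400 CPM), 73.8 to 417 CPM at 48 h (median 306 CPM) and 31.0 to 264 CPM at 72 h (median 229 CPM). Its estimate from 24 to 72 h was -1.05 (SE 0.24, adjusted p = 0.0501, edgeR), just outside the threshold. Without the 3 low libraries it was -0.88 with an adjusted p of 0.0300, and with pairs summed it was -1.01 with an adjusted p of 0.407. Group means of Fabp1 in CPM went down from 24 to 48 to 72 h in all 4 treatments. In DMSO the last step was small, from 330, 362 and 73.8 CPM to 253, 262 and 247 CPM. On log2(CPM + 1) that DMSO mean was higher at 72 than at 48 h, where low replicate 3 lies.

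Fabp2, the intestinal carrier, had medians of 686, 538 and 540 CPM at 24, 48 and 72 h. The estimate from 24 to 72 h was -0.47 (SE 0.14, adjusted p = 0.125, edgeR), and the estimate from 24 to 48 h was -0.41 (SE 0.14, adjusted p = 0.423). The count of Fabp1 relative to Fabp2 had a median of 0.599 at 24 h (0.401 to 0.938), 0.532 at 48 h and 0.405 at 72 h (0.128 to 0.466). The lower ratio at 72 h was described after the values were seen and was not tested.

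Mttp and Dgat1 act inside the endoplasmic reticulum, the first in particle assembly and the second in the last step of triglyceride synthesis. Mttp had medians of 243, 204 and 215 CPM at 24, 48 and 72 h and an estimate from 24 to 72 h of -0.39 (SE 0.17, adjusted p = 0.270, edgeR), or -0.22 without the 3 low libraries. For Dgat1 the medians were 165, 149.8 and 170.02 CPM and the estimate was -0.04 (SE 0.13, adjusted p = 0.926; 95% interval -0.31 to 0.23). The Dgat1 interval leaves room for a decrease of no more than 0.31 on the log2 scale. The Dgat1 estimate turned to 0.05 without the 3 low libraries.

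Cd36, a membrane receptor for long chain fatty acids, had few counts. Its median was 19.7 CPM at 24 h, 26.0 CPM at 48 h and 6.70 CPM at 72 h. At 72 h its counts in single libraries were 5, 11 and 2 in DMSO, 4, 9 and 10 after 90 min, 1, 0 and 24 after 130 min and 6, 4 and 13 after 170 min. The estimate from 24 to 72 h was -1.72 (SE 0.48, adjusted p = 0.105, edgeR), and from 48 to 72 h it was -1.60 (SE 0.48, adjusted p = 0.238). The library 130 min 72 h replicate 3, at 32.9 CPM, was the highest at 72 h, and without it Cd36 passed for 72 against 24 h, at -2.69 (adjusted p = 0.0222, edgeR). It also passed without 130 min 24 h replicate 1, at -1.84 (adjusted p = 0.0452).

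Between 24 and 48 h, 0 of the 9 genes passed in edgeR or DESeq2, and 0% of all genes passed in edgeR (17 genes in DESeq2). At an unadjusted p under 0.05, 4 were lower (Apoa4, Fabp1, Fabp2 and Mttp), against 5.31% of all genes. The estimate for Apoa4 was -0.73 (SE 0.33, adjusted p = 0.505), or -0.46 without the 3 low and 1 high libraries, and that for Fabp1 -0.58 (SE 0.23, adjusted p = 0.459). Between 48 and 72 h, 0 of the 9 passed in either tool, and 0% of all genes passed in edgeR (9 genes in DESeq2). At the unadjusted threshold 3 were lower (Apoa1, Apoa4 and Cd36), against 6.79% of all genes. Apoa4 then had an estimate of -1.09 (SE 0.40, adjusted p = 0.305).

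Within single treatments the estimates from 24 to 72 h after 130 min pulses were further below 0 than in the other treatments for 7 of the 9 genes, the exceptions being Apob and Cd36. There 0 of the 9 genes passed in edgeR, where 0.209% of all genes passed, and 7 were lower at an unadjusted p under 0.05, where 7.05% of all genes were. DESeq2 passed 4 of them (Apoa1, Apoa4, Fabp1 and Fabp2), where it passed 1.29% of all genes (148 genes, against 24 in edgeR). Fabp2 had an estimate of -1.22 (SE 0.28, adjusted p = 0.0614), Fabp1 one of -1.86 (SE 0.50, adjusted p = 0.0800), Apoa1 one of -1.78 (SE 0.49, adjusted p = 0.0835) and Apoa4 one of -3.04 (SE 0.84, adjusted p = 0.0867). For Apoc3 the estimate was -1.97 (SE 0.66), for Cd36 -1.93 (SE 0.91), for Mttp -0.87 (SE 0.34), for Dgat1 -0.39 (SE 0.27) and for Apob -0.02 (SE 0.27). This contrast holds both the highest and the lowest library of the series for these genes.

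In single libraries after 130 min pulses, Fabp1 was at 404, 514 and 795 CPM at 24 h and at 215, 31.0 and 244 CPM at 72 h. Fabp2 went from 995, 869 and 1058 CPM to 461, 242 and 564 CPM. Apoa1 went from 741, 650 and 1135 CPM to 315, 56.2 and 381 CPM. All 3 genes had 24 and 72 h groups that did not overlap, as had Apoa4 and Apoc3, so 5 of the 9 were lower without overlap where 6.6% of all genes were. Without the 3 low and 1 high libraries the estimates were -1.01 for Fabp1, -0.87 for Fabp2, -1.004 for Apoa1, -1.69 for Apoa4, -0.73 for Apoc3, -1.06 for Cd36, -0.20 for Mttp and 0.081 for Dgat1, which leaves 2 libraries at each time. Without 130 min 72 h replicate 2 alone the estimate was -0.42 for Mttp and -1.23 for Cd36, and without 130 min 72 h replicate 3 alone it was -2.97 for Apoc3 and -5.83 for Cd36, whose counts at 72 h were then 1 and 0. In edgeR 1 to 4 of the 9 genes passed when 1 library was left out, namely DMSO 48 h replicate 2 or 3, 130 min 24 h replicate 2, 130 min 72 h replicate 3 (4 genes) or 170 min 72 h replicate 2 or 3, and 0 passed without any other.

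In DMSO 0 of the 9 genes passed for 72 against 24 h (1 lower at an unadjusted p under 0.05 against 3.24% of all genes, 0 in DESeq2), and 0% of all genes did. Without overlap 4 genes were lower, Apoa4, Fabp1, Mttp and Cd36, where 6.21% of all genes were. The estimate for Apoa4 was -1.17 (SE 0.71, adjusted p = 0.862). The one DMSO gene at an unadjusted p under 0.05 was Apob, which went from 78.6, 196 and 154 CPM to 71.8, 82.7 and 104 CPM, with groups that overlapped (-0.78, SE 0.28, adjusted p = 0.843).

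After 170 min pulses 0 of the 9 genes passed (3 lower at an unadjusted p under 0.05 against 4.21% of all genes, 0 in DESeq2), and 0% of all genes did. Apoa4 and Fabp1 were lower without overlap, where 5.89% of all genes were, and Apoa4 had an estimate of -2.21 (SE 0.76, adjusted p = 0.609). After 90 min pulses 0 passed in edgeR or DESeq2 and 0 were lower at an unadjusted p under 0.05, where 0% and 0.75% of all genes were. There no gene of the 9 was lower without overlap, where 3.36% of all genes were. The estimate for Apoa4 there was -0.84 (SE 0.71), or -0.16 with 90 min 24 h replicate 1 left out. Whether the change with duration differed between treatments was tested as an interaction. None of the 9 genes passed (adjusted p = 1.00 for each, edgeR), none was under an unadjusted p of 0.05 (2.37% of all genes were), and 0% of all genes passed, so the larger estimates after 130 min pulses were not shown to differ from those of the other treatments.

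**Figure D4:**
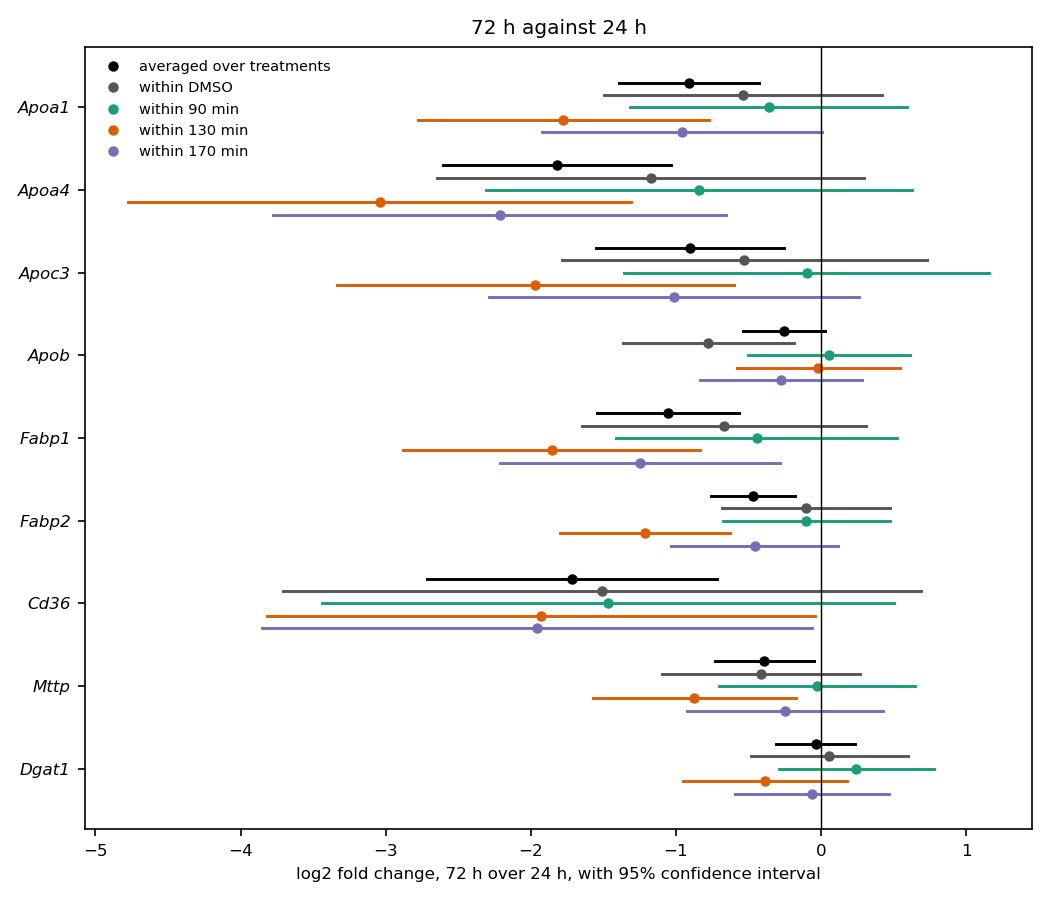
Log2 fold change from 24 to 72 h for each of the 9 genes (rows), averaged over treatments (black, n = 12 against 12) and within each treatment (colours, n = 3 against 3), with 95% confidence intervals. The averaged interval of Apoa4 runs from -2.60 to -1.03 and that of Dgat1 spans 0, and the intervals within treatments overlap one another.

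The question of the study was what DAPT pulses of different period do, and against DMSO none of the 9 genes passed with any period. Averaged over durations, 0 of 9 passed after 90, 130 and 170 min pulses in edgeR and in DESeq2, 0 were under an unadjusted p of 0.05, and 0% of all genes passed in each comparison in edgeR (0, 7 and 0 genes in DESeq2). At the unadjusted threshold the share of all genes was 7.92% for 90 min, 5.49% for 130 min and 8.64% for 170 min. Estimates for the 9 genes ran from -0.37 (Apoa4, 130 min, SE 0.45) to 1.00 (Cd36, 130 min, SE 0.55). The Cd36 estimate rested on single libraries of few counts, and without 130 min 72 h replicate 3 it was -0.29.

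Intervals set what these comparisons could have missed. For Apoa1 the 95% interval of the log2 fold change was -0.77 to 0.33 after 90 min, -0.63 to 0.49 after 130 min and -0.73 to 0.37 after 170 min. For Apob it was -0.34 to 0.33, -0.04 to 0.62 and -0.39 to 0.27. For Apoa4, whose spread within groups was wider than that of 97.9% of tested genes, it was -1.16 to 0.53, -1.30 to 0.56 and -1.09 to 0.63. Apob, Fabp2, Mttp and Dgat1 had the narrowest intervals and Cd36 the widest.

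**Figure D5:**
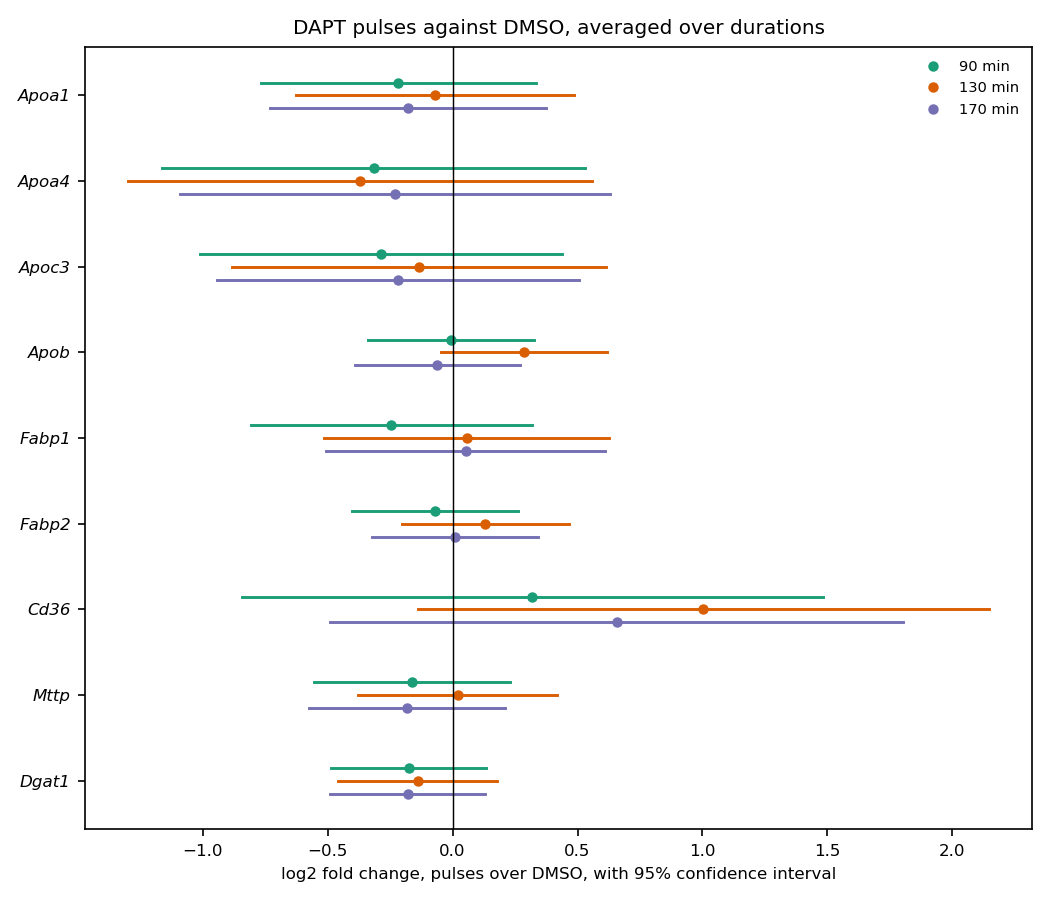
Log2 fold change of DAPT pulses over DMSO, averaged over the 3 durations, for each of the 9 genes (rows) and the 3 periods (colours), with 95% confidence intervals, n = 9 libraries on each side. Each interval spans 0, and the interval of Cd36 is the widest.

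At single durations 0 of the 9 genes passed against DMSO in any of the 9 comparisons, in edgeR or in DESeq2. In edgeR 0% of all genes passed in each, and in DESeq2 1 gene did for 90 min at 24 h and 1 for 130 min at 72 h. Of the 9, 1 gene in 1 comparison was under an unadjusted p of 0.05. Of all genes, 9.69%, 1.53% and 0.995% were under it for 90 min at 24, 48 and 72 h, 4.7%, 2.47% and 10.3% for 130 min, and 12.4%, 3.15% and 2.17% for 170 min. The gene was Apob at 72 h after 130 min pulses, at 179, 115 and 132 CPM against 71.8, 82.7 and 104 CPM in DMSO (0.68, SE 0.28, adjusted p = 0.409, edgeR), where 5.5% of all genes were higher at that threshold. All 3 treated libraries were above all 3 of DMSO, where 7.33% of all genes were. In the same comparison Apoa1, Apoa4, Fabp1 and Fabp2 were lower without overlap, where 7.6% of all genes were. Apoa1 was at 315, 56.2 and 381 CPM against 458, 450 and 481 CPM, an estimate of -0.92 (SE 0.49, adjusted p = 0.537), or -0.42 with the second of these 130 min libraries left out and -1.43 with the third left out. Apob and these 4 genes thus pointed opposite ways, none past the threshold.

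At 24 h Mttp was lower without overlap than in DMSO after 90 min (6.11% of all genes) and after 170 min pulses (8.03%), and Fabp2 was higher after 130 min pulses (3.42%). Mttp was at 291, 297 and 329 CPM in DMSO, 224, 232 and 186 CPM after 90 min, 241, 309 and 417 CPM after 130 min and 196, 209 and 246 CPM after 170 min. All 6 libraries of 90 and 170 min lay below all 3 of DMSO, while those of 130 min lay on both sides. These comparisons share the DMSO libraries, and 0 passed.

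At 48 h Apob and Cd36 were higher without overlap after 130 min pulses (3.8% of all genes). After 170 min pulses all 9 estimates at 48 h were above 0 with none at an unadjusted p under 0.05, and the DMSO group there holds replicate 3, 1 of the 3 low libraries. At 72 h Apoa1 was lower without overlap after 90 min (3.59% of all genes) and after 170 min pulses (4.15%). It was at 341, 387 and 441 CPM after 90 min and at 282, 160 and 426 CPM after 170 min, all below the 3 DMSO libraries. The estimates in DESeq2 were -0.25 (SE 0.48) and -0.68 (SE 0.48), and neither passed. Both comparisons share the DMSO libraries, and the 170 min group holds low replicate 2.

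Periods were also set against each other. Libraries of 130 and 170 min with the same number deviated together at all 3 durations, so this pair was compared within numbers. Apob was lower after 170 than after 130 min pulses in 7 of 9 pairs, by -0.36 (SE 0.10, unadjusted p = 0.00175, adjusted p = 0.138, edgeR with the pairs as a block, against -0.35 and an adjusted p of 0.392 without it). It averaged 104 CPM (SD 16.9, n = 9) after 170 min and 134 CPM (SD 21.6, n = 9) after 130 min. None of the 9 genes passed with the block or without it, and 0% of all genes did in either fit. Without the block Apob was the 1 gene lower at an unadjusted p under 0.05, where 6.82% of all genes were. For 90 against 130 min and for 170 against 90 min, 0 of the 9 passed (0% of all genes) and 0 were under an unadjusted p of 0.05, where 11.8% and 1.3% of all genes were. At 24 h 0 of the 9 genes passed with the block, where 0% of all genes did, and the estimates furthest from 0 relative to their errors were -0.55 for Mttp (SE 0.18, adjusted p = 0.296) and -0.55 for Fabp2 (SE 0.20, adjusted p = 0.312). Those for Apoa1, Apoc3 and Apob were -0.61 (SE 0.30), -0.59 (SE 0.27) and -0.39 (SE 0.17). At 72 h 0 of the 9 passed, where 0.0262% of all genes did, and the estimate for Apob was -0.61 (SE 0.18, adjusted p = 0.356). Between 90 min and DMSO no gene of the 9 passed with pairs as a block, where 0.00872% of all genes did.

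Across the 36 libraries 6 of the 9 genes had levels that varied together. On log2(CPM + 1) the mean Pearson correlation of a gene with the other 8 was 0.78 for Apoa1, 0.75 for Apoa4, 0.75 for Fabp1, 0.74 for Apoc3, 0.73 for Mttp and 0.72 for Fabp2. It was 0.56 for Cd36, 0.41 for Dgat1 and 0.27 for Apob. The pair with the highest value was Apoa1 and Apoa4 (0.96), whose promoters are shown above, then Apoa4 and Apoc3 (0.95) and Apoa1 and Apoc3 (0.94), the 3 neighbours on chromosome 9. Apoa4 and Fabp1, which lie on different chromosomes, reached 0.94. The values share library, depth and scaling and are a description.

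The low libraries carried part of this. Without the 3 of them the mean correlation was 0.68 for Apoa1, 0.64 for Apoa4, 0.63 for Fabp1, 0.66 for Apoc3, 0.54 for Mttp, 0.60 for Fabp2, 0.33 for Cd36 and 0.18 for Dgat1, and 0.34 for Apob. Dgat1, not Apob, then followed the others least. The highest pair was then Apoa4 and Fabp1 (0.90), which lie on different chromosomes. The pairs of neighbours were lower: Apoa4 and Apoc3 at 0.88, Apoa1 and Apoa4 at 0.87 and Apoa1 and Apoc3 at 0.86. Taken as deviations from the group means over all 36, with the 3 low libraries included, Apoa1 and Apoa4 were at 0.94. Apoa4 and Apoc3 were at 0.94 as well. These deviations were not correlated without the low libraries, so the part of those libraries is not known.

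Spread within groups set the genes apart as well. The standard deviation of log2(CPM + 1) around the group means was 1.26 for Cd36, 1.18 for Apoa4 and 1.00 for Apoc3, wider than in 98.3%, 97.9% and 96.6% of tested genes. It was 0.69 for Fabp1, 0.64 for Apoa1 and 0.46 for Mttp, and lowest for Apob (0.38), Fabp2 (0.37) and Dgat1 (0.35). The median over all tested genes was 0.27. Part of the spread of Cd36 is counting error, since its counts reached 0 and 1 in single libraries.

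Among the 10 genes whose levels were most like these 9 over the 36 libraries, by the mean Pearson correlation with them, were Sis (0.78), Cyp2b10, Reg3a, Slc5a1, Leap2, H2-Q2, Cyp4f14 and Mme (0.77). Sis encodes the brush border enzyme sucrase-isomaltase, Slc5a1 the sodium-glucose transporter, Mme a brush border peptidase and Reg3a an antimicrobial lectin. Sis was at 82.4 to 912 CPM over the libraries and Reg3a at 5.82 to 372 CPM. By rank correlation 5 of these 10 were again among the first 10. The least alike genes were Tspan9 (-0.66), Syngr1, Crip2, Cryab and Nectin4 (-0.62). Over all tested genes the median of this mean correlation was -0.02.

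Other genes of the pathway were read from lists by role, and none of their genes passed for 72 against 24 h, where 0.157% of all genes did. At an unadjusted p under 0.05, the threshold of the counts that follow, 7.18% of all genes were higher and 7.63% lower. Of 13 tested genes of lipid uptake and activation, 1 was higher and 3 lower at an unadjusted p under 0.05, with a median log2 fold change of -0.17. The acyl-CoA binding protein gene Dbi had an estimate of -0.20 (SE 0.07, adjusted p = 0.172, edgeR) and the acyl-CoA synthetase gene Acsl5 one of 0.07 (SE 0.10, adjusted p = 0.817). Of 15 re-esterification genes, 1 was higher and 2 lower, with a median of -0.02. Acat2 had an estimate of -0.13 (SE 0.07) and the lysophospholipid acyltransferase gene Lpcat3 one of -0.09 (SE 0.09).

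Of 21 genes of chylomicron packaging and lipid droplets, 2 were higher and 1 lower at the unadjusted threshold, with a median of -0.03. Sar1b, whose GTPase is needed to export chylomicrons, had an estimate of -0.11 (SE 0.06, adjusted p = 0.441) and Prap1 one of -0.23 (SE 0.14, adjusted p = 0.459, edgeR). Of 22 regulators, 3 were higher and 5 lower, with a median of -0.05, and the transcription factor gene Hnf4a had an estimate of -0.07 (SE 0.08, adjusted p = 0.725). Only 2 of the other apolipoprotein genes were tested, and Apoe had an estimate of -0.09 (SE 0.23). Of 25 further enterocyte markers, 0 were higher and 15 lower at the unadjusted threshold, with a median of -0.51, against -0.90 for the 9 genes and -0.00 for all genes. Of these, Alpi, the intestinal alkaline phosphatase gene, had an estimate of -0.09 (SE 0.12, adjusted p = 0.763, edgeR).

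Markers of other cell types of the epithelium were read in the same comparison, and 0 of them passed. All 8 goblet cell genes had estimates above 0, with a median of 0.22 and 3 at an unadjusted p under 0.05, and all 8 proliferation genes had estimates above 0, with a median of 0.07 and 1 at that threshold. All 8 enteroendocrine genes tested were below 0, with a median of -1.30 and 1 at that threshold. Stem cell genes (8) had a median of -0.11 and Paneth cell genes (8) of -0.25. Their part in the lower levels of the 9 genes was not tested.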

How the data were processed

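Sort-seq libraries of polyadenylated RNA from 36 organoid samples were analysed. The authors deposited 1 table of molecule (UMI) counts for 34197 genes by 36 columns, and the submitters' processing notes name STAR 2.7.8a and UMI-tools 1.1.1. Build, annotation and UMI length: not given in the sources used here. Each column was matched to its sample by name, and 0 columns were left unused.

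From these counts, genes were kept with edgeR's filterByExpr (11462 genes), scaled by TMM and fitted over all 12 groups with edgeR 4.0.16 (limma 3.58.1, R 4.3.3) by the quasi-likelihood test, with 24 residual degrees of freedom, a biological coefficient of variation of 0.145 and Benjamini-Hochberg adjustment over all tested genes at 0.05. The CPM printed are TMM-scaled. DESeq2 1.42.0 was an alternative. The fit was tested on simulated data. The 10 genes and the gene lists were chosen with earlier results of these data known. All 9 genes with a row are named, with up to 2 genes of highest mean CPM from each list in which none passed, and the 10 most and 5 least like genes by mean Pearson correlation. Some genes that this rule names are not reported here.

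Whether replicate numbers pair the samples was checked by correlating deviations from group means across genes. Of 18 pairs of groups, 5 had every correlation over 0.1: 130 with 170 min at all 3 durations (0.241 to 0.606) and DMSO with 90 min at 24 and 48 h (0.140 to 0.498). The labels do not say what a number marks.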

Additional observations from a re-analysis of the deposited data

How the results depend on the processing

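Of 9 genes, 1 passed for 72 against 24 h. This count was 3 with DESeq2 and 2 with no filter on low counts. It was 0 with the log2 library total as covariate, with same-numbered pairs summed, or without the 3 low and 1 high libraries. Leaving out 1 library gave 0 to 4, and leaving out all libraries numbered 1, 2 or 3 gave 0 each time. Within 130 min pulses the count was 0, but 4 with DESeq2, 1 with no filter, 1 with the total as covariate and 0 to 4 with replicates left out. For 72 against 48 h, leaving out replicates gave 0 to 1. Signs turned for Dgat1, 72 against 24 h, at 0.049 without the 3 low libraries and 0.11 without these and the high one (-0.13 to 0.024 with replicates left out). Within 130 min pulses they turned for Apob, at 0.12 and 0.16 (-0.25 to 0.12), and for Dgat1, at 0.081 without the 4 libraries. With replicates left out, Apoa4 within 90 min pulses ran from -1.48 to 0.094 and Cd36, 130 min against DMSO, from -0.36 to 1.41. The cause was not tested beyond these removals. The replicate block changed no call of the 9 genes within durations. A replicate block within each duration could not be fitted for comparisons between durations, whose blocks are nested in them, and was not run. Cd36 at 72 h is limited by its counts, of which the highest was 24.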
